A study of Mus musculus with 12 samples.

Results

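The vascular endothelial growth factor (VEGF) family, the angiopoietins and the VEGF receptors were followed here as 10 genes out of the 27998 listed for each library: Figf (the older symbol of Vegfd), Vegfa, Vegfb, Vegfc, Pgf, Angpt1, Angpt2, Kdr, Flt1 and Flt4. They were picked by gene symbol, with earlier results of these data known, and all 10 were listed in each of the 12 libraries. The symbols were read from the gene lists of single-cell RNA-seq libraries made from mammary glands of 43-week-old female C57BL/6J mice. The comparisons ask how these genes are shared out among fibroblast subsets, immune cells and endothelial cells, and how their levels stood after 17β-estradiol (E2), after E2 with progesterone (P4), and after polybrominated diphenyl ethers (PBDEs), which are flame retardants.

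VEGF ligands are secreted dimers that act mainly on endothelial cells. Vegfa signals through Kdr (VEGFR2) and Flt1 (VEGFR1) and drives the growth and permeability of blood vessels, whereas Vegfb and Pgf bind Flt1, which holds Vegfa with high affinity and signals weakly. Vegfc and Figf are the lymphangiogenic ligands: they are made as precursors, are cut by proteases, and act on Flt4 (VEGFR3), the receptor that marks lymphatic endothelium. Fully processed Vegfc can also bind Kdr. Angpt1, made by perivascular and stromal cells, activates the receptor TIE2 (Tek) and steadies vessels, and Angpt2 acts as its context-dependent antagonist. In the mammary gland, fibroblasts surround the ducts and fill the fat pad, and the vessels that feed and drain the gland run through the same stroma.

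All mice but those of the intact group had received 4-vinylcyclohexene diepoxide (VCD), 160 mg/kg/day by injection for 15 days, which depletes ovarian follicles and models menopause. The control library was from vehicle-treated VCD mice (VCD_Vehicle), and E2 (1 µg per animal per day) or E2 + P4 (1 mg of P4 per animal per day) was given for 1 week. The same 3 hormone states (none, E2, E2 + P4) were repeated in mice fed low PBDE for 20 weeks (3 congeners at 0.05, 0.0028 and 0.0063 mg/kg/day) and in mice fed high PBDE for 1 week (1, 0.056 and 0.126 mg/kg/day), so that dose and duration cannot be told apart. Mice without PBDE ate food with the DMSO solvent. These 9 libraries form the layout that was tested. Outside it stood the intact library, another vehicle library (VCD_Vehicle_NormEnv) from mice with possible exposure to PBDEs from cage plastics, and a library from VCD mice given E2 and 5 mg of ICI, an antagonist that degrades the estrogen receptor (VCD_E2_ICI). Each group is 1 library, and the labels do not say how many animals each holds. The p-values of the hormone tests therefore measure the spread between libraries that differ in PBDE feed, which here stand in for replicates. Those of contrasts between kinds of cells measure the spread of that contrast over libraries that also differ in hormone state.

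After filters on genes, unique molecular identifiers (UMIs, each standing for 1 captured transcript) and mitochondrial share, 46257 of 58620 barcodes were kept, with a median of 11843 to 20446 UMIs per cell and 41737881 to 109224969 UMIs in all per library. Of 45975 distinct barcodes, 274 (0.596%) occurred in more than 1 library, and the most shared by a pair was 15. Fibroblasts, 31249 cells without a UMI of 6 epithelial, immune, endothelial and pericyte genes, were scored on marker lists. The scores placed 26160 of them (83.7%) in a Dpp4 subset (11591 cells), a Fabp4 subset (6880), a Tnc subset (3834) or a Gdf10 subset (3855), each named for its leading marker, and left 5089 (16.3%) between subsets. A further 6703 cells were immune, with 1096 macrophages and 2086 T cells among them, and 125 were endothelial (1 to 32 per library), of which 71 carried blood and 51 lymphatic endothelial markers. No gate used any of the 10 genes. The median UMIs per cell were 18602 in the Dpp4, 16069 in the Fabp4, 12598 in the Tnc and 13573 in the Gdf10 subset, 12977 in macrophages, 5660 in T cells and 9111 in endothelial cells. Levels are given as CPM, the UMIs of a gene per 1000000 UMIs of the gate, which 3′ counting leaves without a correction for gene length, so that they are compared between cells and not between genes.

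Among the lymphangiogenic ligands, Figf (X:164373378-164402650, plus strand, GRCm38) was a gene of all 4 fibroblast subsets, with its highest median over the 12 libraries in the Dpp4 subset. Its level over the 12 libraries ran from 92.1 to 362 CPM there (median 186), from 25.6 to 118 in the Fabp4 subset (median 67.5), from 38.0 to 138 in the Tnc subset (median 99.6) and from 50.8 to 166 in the Gdf10 subset (median 102). The Dpp4 subset was above the Fabp4 and Gdf10 subsets in 12 of 12 libraries and above the Tnc subset in 10 of 12. The 2 exceptions were the low-PBDE and high-PBDE libraries without hormone. Over the layout libraries without hormone the means were 104 CPM in the Dpp4 and 111 in the Tnc subset. The Gdf10 subset led the Tnc subset in the 6 libraries given E2 without ICI, and the Tnc subset led in the other 6. Against the mean of the other 3 subsets, with the library as a block, Figf was 2.24-fold higher in the Dpp4 subset (log2 difference 1.16, SE 0.15, edgeR adjusted p = 6.01e-09). In this and the later edgeR contrasts between subsets, the mean of the others is a mean of log2 levels. With every cell thinned to 5000 UMIs, 48.5% of Dpp4-subset cells held a Figf UMI, against 0.639% of T cells, which should lack the gene (75.2% and 1.87% without thinning, at median depths of 18602 and 5660 UMIs). The T-cell share, read as a measure of free RNA in the droplets, was small beside that of the fibroblasts. The stretch just before the Figf gene is shown because the level of this gene differed most often between hormone states in the results that follow. It is RefSeq sequence of build GRCm38.p6, plus strand, 106 bases that end where the gene begins, and it has no capitals because none of the motifs searched lies in it, while GGTCA occurs once further on, inside the gene.
Figf, chrX:164373272-164373377: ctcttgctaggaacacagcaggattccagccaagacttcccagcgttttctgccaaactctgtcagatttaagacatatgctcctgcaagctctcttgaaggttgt
The motifs searched on both strands were GGTCANNNTGACC, the full estrogen response element (0.0639% of 32851 promoters of 250 bases), GGTCA, a single arm of that element (35.2%), TGTTCT, an arm bound by progesterone and glucocorticoid receptors (16.1%), ACGTG, the hypoxia response core (16.6%), and GGGCGG, the Sp1 box (32.7%). GGTCA overlaps the full element by its letters. RefSeq promoters were found for 8 of the 10 genes, 10 promoters in all. The full element and TGTTCT were in 0 of these 10, GGTCA in 5, ACGTG in 1 and GGGCGG in 8. A match is a description of letters and no site of binding, and its absence says nothing about a factor.

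Vegfc (8:54077606-54187096, plus strand), the other lymphangiogenic ligand, lay in different fibroblasts. It ranged from 23.2 to 53.4 CPM in the Tnc subset and from 13.3 to 29.4 in the Gdf10 subset, but from 3.02 to 5.88 in the Dpp4 subset and from 3.79 to 7.29 in the Fabp4 subset. The Tnc subset was highest in 12 of 12 libraries, and the Gdf10 subset was above the Dpp4 and Fabp4 subsets in 12 of 12. In edgeR the Tnc subset stood 4.20-fold above the mean of the others (log2 2.07, SE 0.10, adjusted p = 1.49e-20) and the Dpp4 subset 3.51-fold below (adjusted p = 1.38e-17). After thinning, 15.0% of Tnc-subset cells and 0.400% of T cells held a Vegfc UMI.

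Vegfa (17:46016993-46032369, minus strand), the main ligand of blood vessels, was spread over all 4 subsets and highest in the Gdf10 subset. Its range was 69.7 to 134 CPM in the Gdf10 subset, 31.2 to 76.3 in the Dpp4 subset, 28.8 to 74.4 in the Fabp4 subset and 18.1 to 83.1 in the Tnc subset. The Gdf10 subset led the Fabp4 subset in 12 of 12 libraries and the Dpp4 and Tnc subsets in 11 of 12, a 2.11-fold higher level than the mean of the other 3 (log2 1.08, SE 0.12, edgeR adjusted p = 9.39e-10). The Fabp4 and Tnc subsets stood at 6 against 6, an order that went with hormone in the layout. Without hormone the Tnc subset was above, at 75.6 to 83.1 CPM against 51.0 to 54.0. In the 6 hormone-treated libraries the Fabp4 subset was above, at 28.8 to 66.8 CPM against 18.1 to 35.1. The order of the Dpp4 and Fabp4 subsets was not settled by the libraries, at 8 against 4. Vegfa was 1.25-fold lower in the Fabp4 subset (edgeR adjusted p = 0.0275), a call lost without any 1 of the intact, VCD_Vehicle, low PBDE with E2 + P4, VCD_Vehicle_NormEnv or high PBDE libraries and with the study's named genes as the gate (log2 -0.12, adjusted p = 0.301). The RefSeq stretch before its start is shown with GGGCGG in capitals, since this gene too differed between hormone states. It is on the minus strand of GRCm38.p6.
Vegfa, chr17:46032378-46032627: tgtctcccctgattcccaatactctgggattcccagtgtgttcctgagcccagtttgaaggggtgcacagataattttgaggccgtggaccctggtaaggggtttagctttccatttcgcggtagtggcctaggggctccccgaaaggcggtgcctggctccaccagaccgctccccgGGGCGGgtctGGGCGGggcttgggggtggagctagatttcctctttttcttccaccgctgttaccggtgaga
It holds GGGCGG at 2 places and is 59.2% G and C, against 42.4% in the 250-base RefSeq promoter of Figf, most of which lies inside the annotated gene.

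The ligands of Flt1 alone differed in how widely they were found. Vegfb (19:6982473-6987651, minus strand) was present in every subset within a narrow range, with means over the 12 libraries of 34.3 CPM ± 5.65 (SD, n = 12) in the Dpp4 subset, 25.2 ± 4.79 in the Fabp4 subset, 23.1 ± 4.86 in the Tnc subset and 31.6 ± 4.65 in the Gdf10 subset. The Dpp4 subset was above the Fabp4 subset in 12 of 12 libraries (1.36-fold) and above the Tnc subset in 11 of 12 (1.48-fold), and the Gdf10 subset was above the Fabp4 subset in 12 of 12. After thinning, 15.7% of Dpp4-subset cells and 4.72% of T cells held a Vegfb UMI. Pgf (12:85166635-85177790, minus strand), placenta growth factor, was close to a Dpp4-subset gene within the fibroblasts. It stood at 6.63 to 24.1 CPM in that subset, at 0.991 to 11.8 in the Gdf10 subset (median 1.90), and at 0 to 1.14 in the Fabp4 and Tnc subsets. The Dpp4 subset was highest in 12 of 12 libraries, with a mean 4.82 times that of the Gdf10 subset, and was above the mean of the others in edgeR (adjusted p = 8.14e-23). After thinning, 5.15% of Dpp4-subset cells, 0.123% of Fabp4-subset cells and 0.172% of Tnc-subset cells held a Pgf UMI, against 0.400% of T cells, so that the Fabp4 and Tnc values were at background and no fold against them is given.

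The angiopoietins were both highest outside the Dpp4 subset. Angpt1 (15:42424723-42676977, minus strand) was highest in the Gdf10 subset (23.4 to 44.2 CPM), followed by the Tnc subset (13.7 to 23.8), and that order held in 12 of 12 libraries. The Fabp4 subset (4.54 to 10.1 CPM) and the Dpp4 subset (2.88 to 8.82 CPM) were lower in every library and did not differ in a fixed direction, at 7 against 5. Angpt2 (8:18690263-18741562, minus strand) was concentrated in the Tnc subset, with 12.8 to 130.2 CPM, and the Tnc subset was highest and the Dpp4 subset (0.0981 to 0.892 CPM) lowest in 12 of 12 libraries. The Gdf10 subset (3.95 to 14.9 CPM) was above the Fabp4 subset (0.479 to 17.2 CPM) in 9 of 12. In edgeR, Angpt1 was 3.78-fold higher in the Gdf10 subset (log2 1.92, SE 0.10, adjusted p = 4.65e-19) than in the mean of the others. Angpt2 was called higher in the Tnc subset (edgeR adjusted p = 2.09e-20), with a mean 6.199 times that of the Gdf10 subset. After thinning, 20.4% of Tnc-subset cells held an Angpt2 UMI and 0.192% of Dpp4-subset cells did, below the 0.400% of T cells, and for Angpt1 14.5% of Gdf10-subset cells did against 0.0% of T cells.

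Of the receptors, Kdr (5:75932827-75978458, minus strand) was found in fibroblasts at a low level and mainly in the Dpp4 subset, at 5.49 to 28.9 CPM, above the Fabp4 and Tnc subsets in 12 of 12 libraries and the Gdf10 subset in 11 of 12. The Gdf10 subset held 4.37 to 15.4 CPM, the Tnc subset 0.992 to 8.34, and the Fabp4 subset, lowest in every library, 0.113 to 0.944. Kdr was called higher in the Dpp4 subset than in the mean of the others (edgeR adjusted p = 4.54e-19), and its mean there was 2.01 times that of the Gdf10 subset and 3.86 times that of the Tnc subset. Thinned, 6.77% of Dpp4-subset cells held a Kdr UMI, against 0.201% of Fabp4-subset cells and 0.160% of T cells. Over the 9 libraries of the layout, the endothelial marker list, whose Pecam1 is at 0 by the gate, summed to 0.325 to 1.25 CPM in the Dpp4 subset, the blood endothelial list to 1331 to 3017 and the lymphatic list to 260 to 382. The part of other cells' RNA in the Kdr values was not tested. Flt1 (5:147561604-147726011, minus strand) and Flt4 (11:49609263-49652739, plus strand) were at background in fibroblasts: after thinning 0.136% of them held a Flt1 UMI and 0.0628% a Flt4 UMI, against 0.320% and 0.0799% of T cells.

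**Figure D1:**
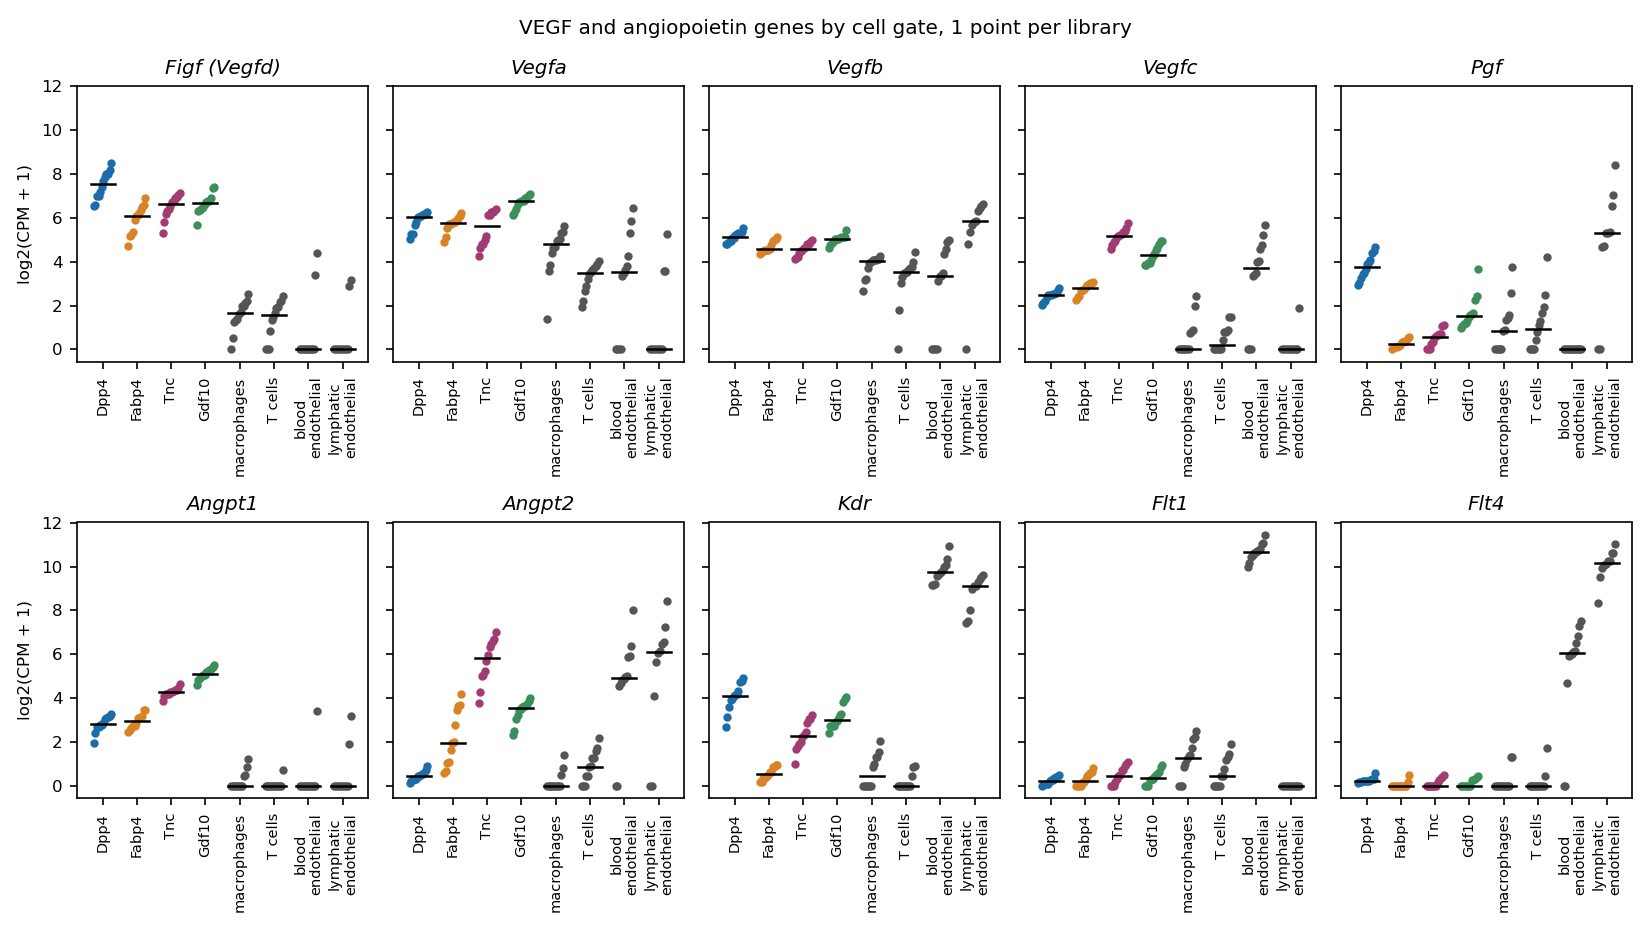
Level of each of the 10 genes, as log2(CPM + 1), in the 4 fibroblast subsets, macrophages, T cells, and blood and lymphatic endothelial cells; each point is 1 library and the bar is the median over libraries. Figf, Pgf and Kdr are highest in the Dpp4 subset among fibroblasts, Vegfc and Angpt2 in the Tnc subset, Vegfa and Angpt1 in the Gdf10 subset, and Flt1 and Flt4 are near 0 in the fibroblast subsets, with Flt1 in macrophages at a median of 1.45 CPM.

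Counted over the set, 8 of the 10 genes passed the filter on low counts in the fit between subsets, and Flt1 and Flt4 did not. In the Dpp4 subset 4 of 8 were higher and 3 lower, in the Fabp4 subset 0 were higher and 7 lower, in the Tnc subset 3 were higher and 3 lower, and in the Gdf10 subset 7 were higher and 0 lower than the mean of the other subsets. As that is a mean of log2 levels, subsets with very low levels pull it down. Pgf counted as higher in the Gdf10 subset at a mean of 2.834 CPM over the libraries, with 13.64 in the Dpp4 subset. The shares of all 12771 genes called in the same fits were 71.6%, 59.6%, 60.1% and 49.8%. The median log2 difference of the set was 0.13 in the Dpp4 subset, -1.08 in the Fabp4 subset, -0.18 in the Tnc subset and 1.097 in the Gdf10 subset, beside medians of all genes between -0.02 and 0.00. All 4 subsets were also gated with only a few genes that the study names for each, called the study's named genes here. These were Dpp4, Pi16 and Anxa3, then Fabp4 and Lpl, then Tnc and Mfap4, and last Gdf10 and F3. Postn, which the study names beside Tnc and Mfap4, was not used. With these genes, 95.4% of the Dpp4-gated, 85.5% of the Fabp4-gated, 55.5% of the Tnc-gated and 77.7% of the Gdf10-gated cells stayed in their subset. Both sides of each contrast thus changed, and some orders turned. Kdr was then higher in the Tnc subset (log2 1.69, edgeR adjusted p = 1.32e-10) and lower in the Gdf10 subset (log2 -1.14, adjusted p = 7.79e-05), and Figf was lower in the Gdf10 subset (log2 -0.41, adjusted p = 0.0104).

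E2 was then compared with no hormone, as the mean of the E2 and E2 + P4 libraries minus the libraries without hormone, in a model with hormone and PBDE level. Of the set, 8 genes were tested in the Dpp4 subset (1 higher, 1 lower), 6 in the Fabp4 subset (2 higher, 1 lower), 7 in the Tnc subset (2 higher, 3 lower) and 8 in the Gdf10 subset (1 higher, 1 lower). Of all genes tested, 11.0%, 11.3%, 33.4% and 3.65% were called in these 4 fits, so that counts near 1 of 8 in the Dpp4 subset and 2 of 7 in the Tnc subset would be the background. The median log2 difference of the tested members was 0.11, -0.07, -0.13 and -0.05, against medians of all genes between -0.02 and 0.00. Flt1 and Flt4 were not tested in any fibroblast subset, Pgf not in the Fabp4 and Tnc subsets, and Kdr not in the Fabp4 subset, all for low counts. The 6 hormone-treated libraries all lay above or all below the 3 without hormone for 1 of 8 tested members in the Dpp4 subset (13.3% of all genes), 3 of 6 in the Fabp4 subset (12.4%), 4 of 7 in the Tnc subset (27.7%) and 2 of 8 in the Gdf10 subset (9.42%).

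Figf was higher with E2 in 3 subsets and lower in the Tnc subset. In the Dpp4 subset it stood at 125, 92.1 and 94.0 CPM without hormone (no, low and high PBDE), at 229, 203 and 288 with E2, and at 255, 258 and 362 with E2 + P4. All 6 treated libraries were above the 3 without hormone. The rise was 2.49-fold (log2 1.32, SE 0.14, 95% interval 0.99 to 1.64, edgeR adjusted p = 0.00355), and it was 1.15 on the log2 scale (adjusted p = 0.0555) when E2 alone was compared. In the Fabp4 subset the values were 25.6, 35.3 and 59.1 CPM without hormone, 66.3, 89.0 and 118 with E2, and 68.6, 79.8 and 95.4 with E2 + P4, again without overlap, a rise of 2.17-fold (log2 1.12, SE 0.11, edgeR adjusted p = 0.000519). The Gdf10 subset went from 50.8, 77.7 and 89.4 CPM to 98.0, 106 and 166 with E2 and 118, 107 and 163 with E2 + P4, 1.79-fold higher (log2 0.84, SE 0.13, edgeR adjusted p = 0.00846), a call that was lost without the VCD_Vehicle library (log2 0.69, adjusted p = 0.0532) and with E2 alone (log2 0.77, adjusted p = 0.0821). The Tnc subset moved the other way, from 106, 107 and 121 CPM to 71.2, 82.7 and 129 with E2 and 38.0, 55.4 and 77.8 with E2 + P4. Only the E2 library with high PBDE overlapped the libraries without hormone there. Figf in the Tnc subset was 1.67-fold lower (log2 -0.74, SE 0.13, edgeR adjusted p = 0.0013), or -0.36 on the log2 scale with E2 alone (adjusted p = 0.167). With the study's named genes as the gate the direction turned (log2 0.14, edgeR adjusted p = 0.599).

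Vegfa fell with E2 in the Tnc subset. It was at 83.1, 78.3 and 75.6 CPM there without hormone, at 27.2, 31.0 and 26.8 with E2, and at 18.1, 23.7 and 35.1 with E2 + P4, with no overlap. The level was 3.17-fold lower (log2 -1.66, SE 0.15, 95% interval -2.002 to -1.33, edgeR adjusted p = 3.28e-05), and the call held in 18 of 18 alternative analyses. In the Dpp4 subset Vegfa was at 66.6, 76.3 and 71.7 CPM without hormone, 37.7, 49.4 and 68.8 with E2, and 37.3, 31.2 and 65.0 with E2 + P4. The high-PBDE libraries with hormone lay near those without it, and the difference did not pass the test (log2 -0.66, SE 0.18, edgeR adjusted p = 0.0519), although it did without the high-PBDE library that had no hormone (log2 -0.91, adjusted p = 0.0197) and in DESeq2 (adjusted p = 0.00396). Vegfa did not pass in the Fabp4 subset (log2 -0.17, 95% interval -0.59 to 0.24) nor in the Gdf10 subset (log2 0.03, 95% interval -0.32 to 0.37).

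Angpt2, the angiopoietin that opposes Angpt1, rose with E2 in the Tnc and Fabp4 subsets. In the Tnc subset it was at 31.9, 18.2 and 12.8 CPM without hormone, 61.6, 86.3 and 130.2 with E2, and 79.5, 96.1 and 103 with E2 + P4. The groups did not overlap, and the level was 3.79-fold higher (log2 1.92, SE 0.28, edgeR adjusted p = 0.000505). With the study's named genes as the gate it missed the threshold (log2 1.09, edgeR adjusted p = 0.0655). The log2 ratio of the E2 library to its counterpart without hormone was 0.95 without PBDE, 2.25 at low and 3.35 at high PBDE, values that each rest on 1 library a side. In the Fabp4 subset, where it is scarce, Angpt2 was at 2.07, 1.15 and 0.479 CPM without hormone, 2.87, 5.94 and 9.99 with E2, and 11.5, 17.2 and 11.8 with E2 + P4. That was 6.53-fold higher (log2 2.71, SE 0.44, edgeR adjusted p = 0.00485), and with E2 alone the log2 difference was 2.08 (adjusted p = 0.163). In the Gdf10 subset the log2 difference was -0.41 (95% interval -1.08 to 0.26) and did not pass. Angpt2 did not pass in the Dpp4 subset either, where its means were 0.333 CPM without hormone, 0.381 with E2 and 0.585 with E2 + P4.

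Angpt1 passed in the Fabp4 subset alone, at 10.1, 7.61 and 8.03 CPM without hormone, 7.51, 6.19 and 5.55 with E2, and 4.54, 5.28 and 5.59 with E2 + P4. It was 1.55-fold lower (log2 -0.64, SE 0.14, edgeR adjusted p = 0.0215), and the call was lost in DESeq2 (adjusted p = 0.111), with E2 alone (0.223) and without any 1 of the VCD_Vehicle (0.14), VCD_E2_P4 (0.0537), low-PBDE (0.0632), low-PBDE E2 (0.0572) or high-PBDE (0.0548) libraries. Vegfc went in opposite directions in the subsets that hold most of it, a contrast that depends on the Tnc gate. In the Tnc subset it was at 25.9, 28.7 and 33.4 CPM without hormone, 39.3, 37.0 and 35.4 with E2, and 44.7, 53.4 and 41.1 with E2 + P4. In the Gdf10 subset it was at 23.8, 27.1 and 29.3 CPM without hormone, 15.8, 13.3 and 21.98 with E2, and 14.5, 13.3 and 14.2 with E2 + P4. Neither pair of groups overlapped. The edgeR fit gave a 1.39-fold rise in the Tnc subset (log2 0.47, SE 0.12, adjusted p = 0.0139) and a 1.70-fold fall in the Gdf10 subset (log2 -0.76, SE 0.13, adjusted p = 0.0148). The first was lost without the VCD_Vehicle (adjusted p = 0.105) or low-PBDE library (0.0935) and with E2 alone (0.235), and turned to log2 -0.085 (0.732) with the study's named genes as the gate, the second without the low-PBDE library (0.183), with VCD_Vehicle_NormEnv as the vehicle (0.0668), with a wider subset margin (0.0514) and with E2 alone (0.158).

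Pgf in the Dpp4 subset was at 13.8, 14.9 and 21.3 CPM without hormone, 11.6, 20.0 and 24.1 with E2, and 6.63, 7.14 and 10.1 with E2 + P4. The E2 libraries lay below, within and above the range without hormone, and the E2 + P4 libraries all lay below it. The mean of both hormone states was 1.40-fold lower than none (log2 -0.48, SE 0.12, edgeR adjusted p = 0.0414), but with E2 alone the difference was 0.08 (adjusted p = 0.785), with VCD_Vehicle_NormEnv as the vehicle it was -0.27 (0.253), with the study's named genes as the gate the adjusted p was 0.0504, and the call was lost without any 1 of 6 libraries (VCD_Vehicle, low PBDE, low PBDE with E2 + P4, high PBDE, and high PBDE with E2 or E2 + P4, adjusted p from 0.0559 to 0.135). Vegfb did not pass in any subset in the main fits, with log2 differences from -0.13 to 0.14. With VCD_Vehicle_NormEnv as the vehicle it passed in the Tnc subset (log2 -0.40, edgeR adjusted p = 0.0337). Kdr passed in the Tnc subset, where it was at 7.22, 6.33 and 8.34 CPM without hormone, 2.48, 2.25 and 3.00 with E2, and 2.71, 0.992 and 3.74 with E2 + P4. It was 3.14-fold lower (log2 -1.65, SE 0.28, edgeR adjusted p = 0.00134) with no overlap, but the difference was -0.26 on the log2 scale and did not pass (adjusted p = 0.651) with the study's named genes as the gate. In the Dpp4 subset, its main site among fibroblasts, Kdr was at 28.9, 16.0 and 14.7 CPM without hormone, 11.3, 19.0 and 26.9 with E2, and 14.1, 7.89 and 17.2 with E2 + P4, and did not pass (log2 -0.37, 95% interval -1.12 to 0.38, edgeR adjusted p = 0.49).

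**Figure D2:**
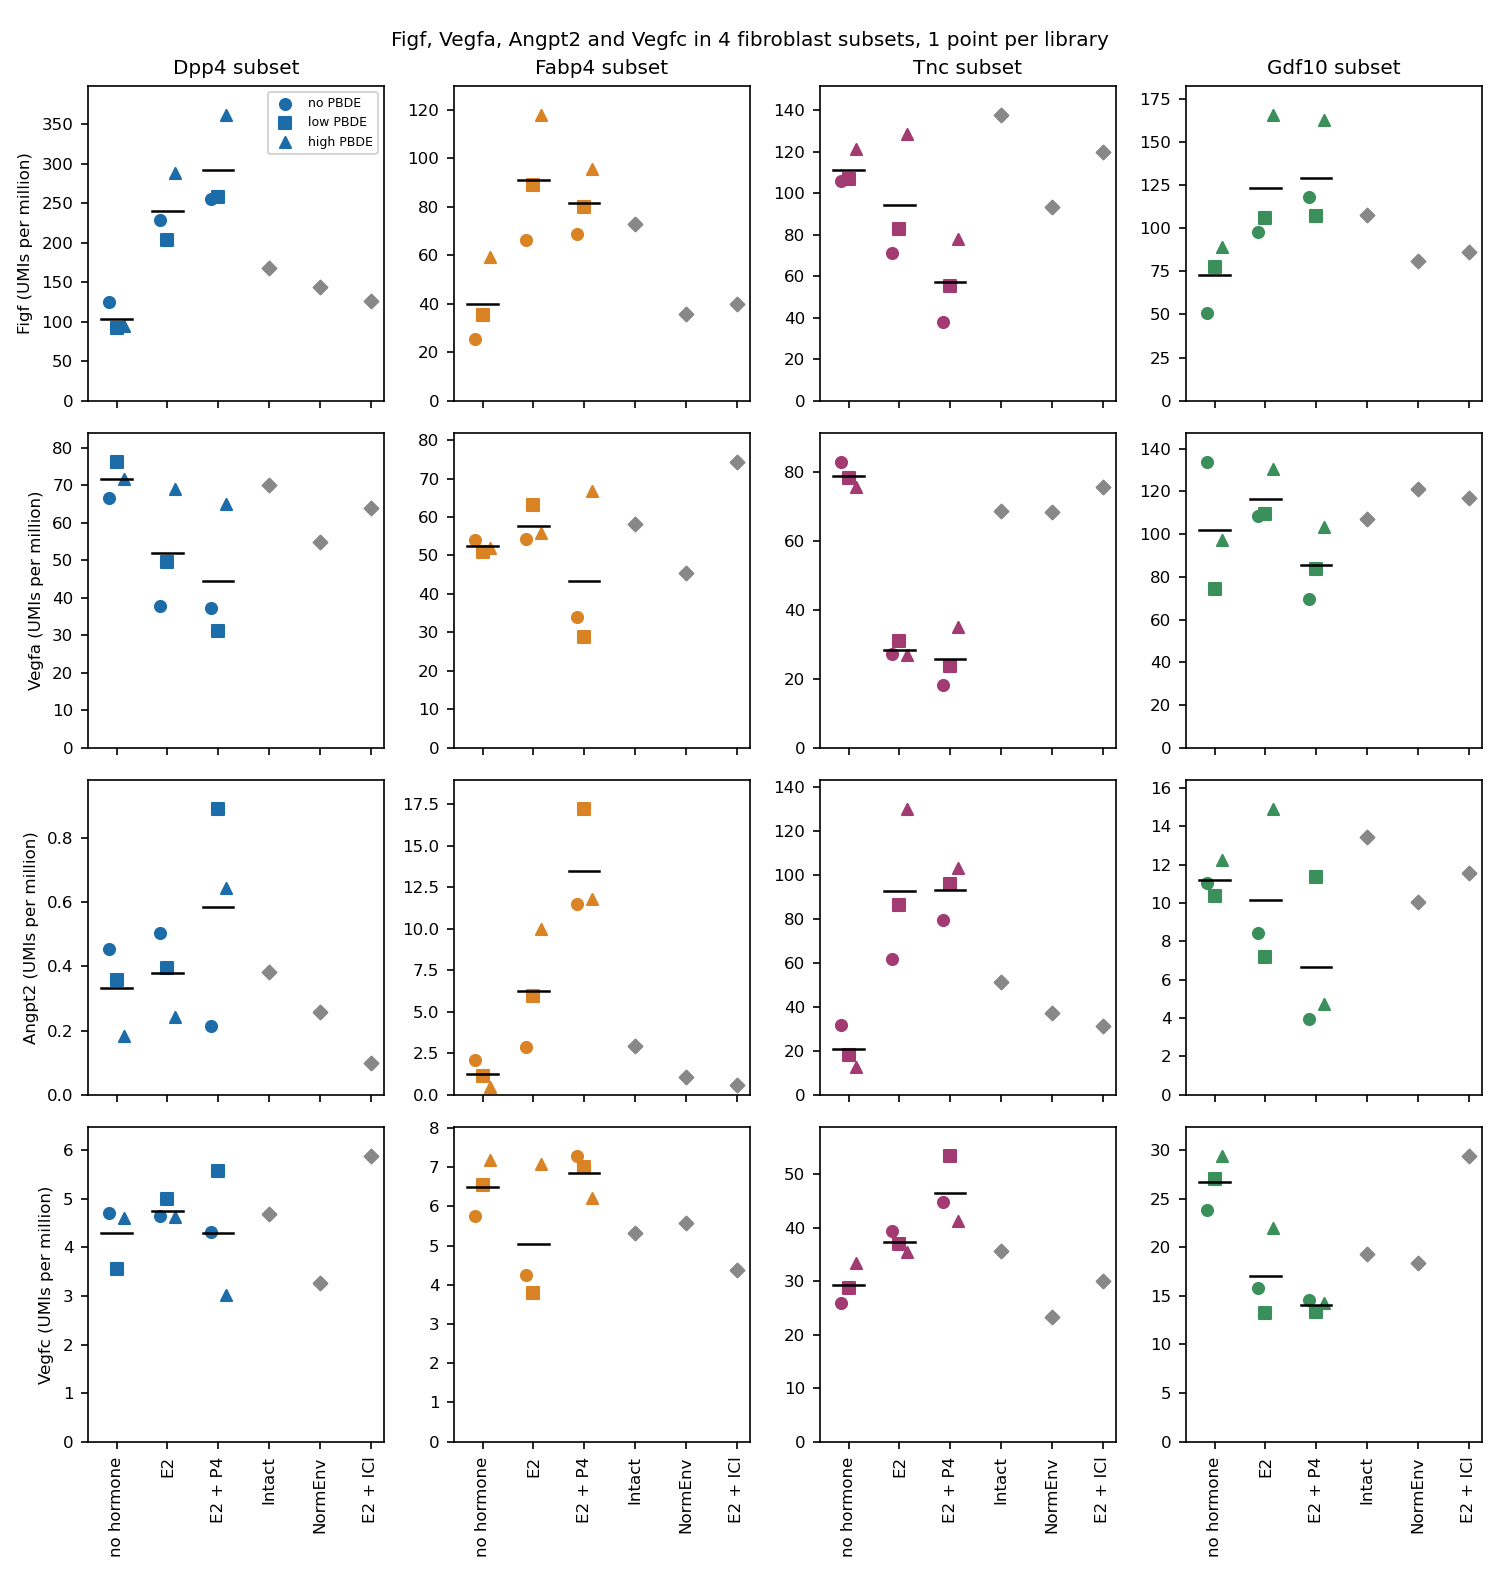
CPM of Figf, Vegfa, Angpt2 and Vegfc in the 4 fibroblast subsets by hormone state; circles, squares and triangles are the libraries with no, low and high PBDE, bars are means of 3 libraries, and grey diamonds are the intact, VCD_Vehicle_NormEnv and VCD_E2_ICI libraries. Figf goes from a mean of 104 CPM without hormone to 240.1 with E2 alone in the Dpp4 subset and from 111 to 94.2 in the Tnc subset, where Vegfa goes from 79.0 to 28.4 and Angpt2 from 20.96 to 92.7.

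Sums of marker lists within the gates moved with hormone as well, and these values stand beside the results above. Such sums cannot tell a change in the make-up of a gate from a change of the listed genes within its cells. In the Tnc gate, the Tnc marker list summed to 3308 to 3491 CPM without hormone and to 2225 to 2827 with it, the pericyte list to 50.1 to 53.6 and 12.7 to 22.2, the blood endothelial list to 333 to 502 and 131 to 289, the fibroblast list to 35560 to 39420 and 42350 to 54580, the Fabp4 list to 2838 to 3114 and 3550 to 4058, the endothelial list to 0.791 to 1.68 and 2.45 to 4.27, the basal epithelial list to 2.23 to 3.96 and 9.39 to 39.7, and the dendritic list to 4.55 to 7.23 and 12.1 to 27.8. The endothelial and blood endothelial lists thus moved in opposite directions there. None of these ranges overlapped. When the Tnc subset was gated on the study's named genes only, Vegfa kept its call, and Figf (log2 0.14, adjusted p = 0.599), Vegfc (-0.09, 0.732), Angpt2 (1.09, 0.0655) and Kdr (-0.26, 0.651) did not pass in edgeR. In the Dpp4 gate, the blood endothelial list went from 1331 to 1693 CPM without hormone to 1956 to 3017 with it, and the Gdf10 list from 123 to 199 to 209 to 397. In the Fabp4 gate the pericyte list was at 48.9 to 57.9 CPM against 24.6 to 47.6, the adipocyte list at 0 to 0.160 against 0.379 to 1.19, and the Fabp4 list at 9228 to 10480 against 10590 to 14340. In the Gdf10 gate the macrophage list was at 1.47 to 3.94 CPM against 4.98 to 52.8, the luminal epithelial list at 5.26 to 8.34 against 8.71 to 22.2, and the blood endothelial list at 839 to 1033 against 1416 to 2456. The part of these shifts in the results was not tested.

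**Figure D3:**
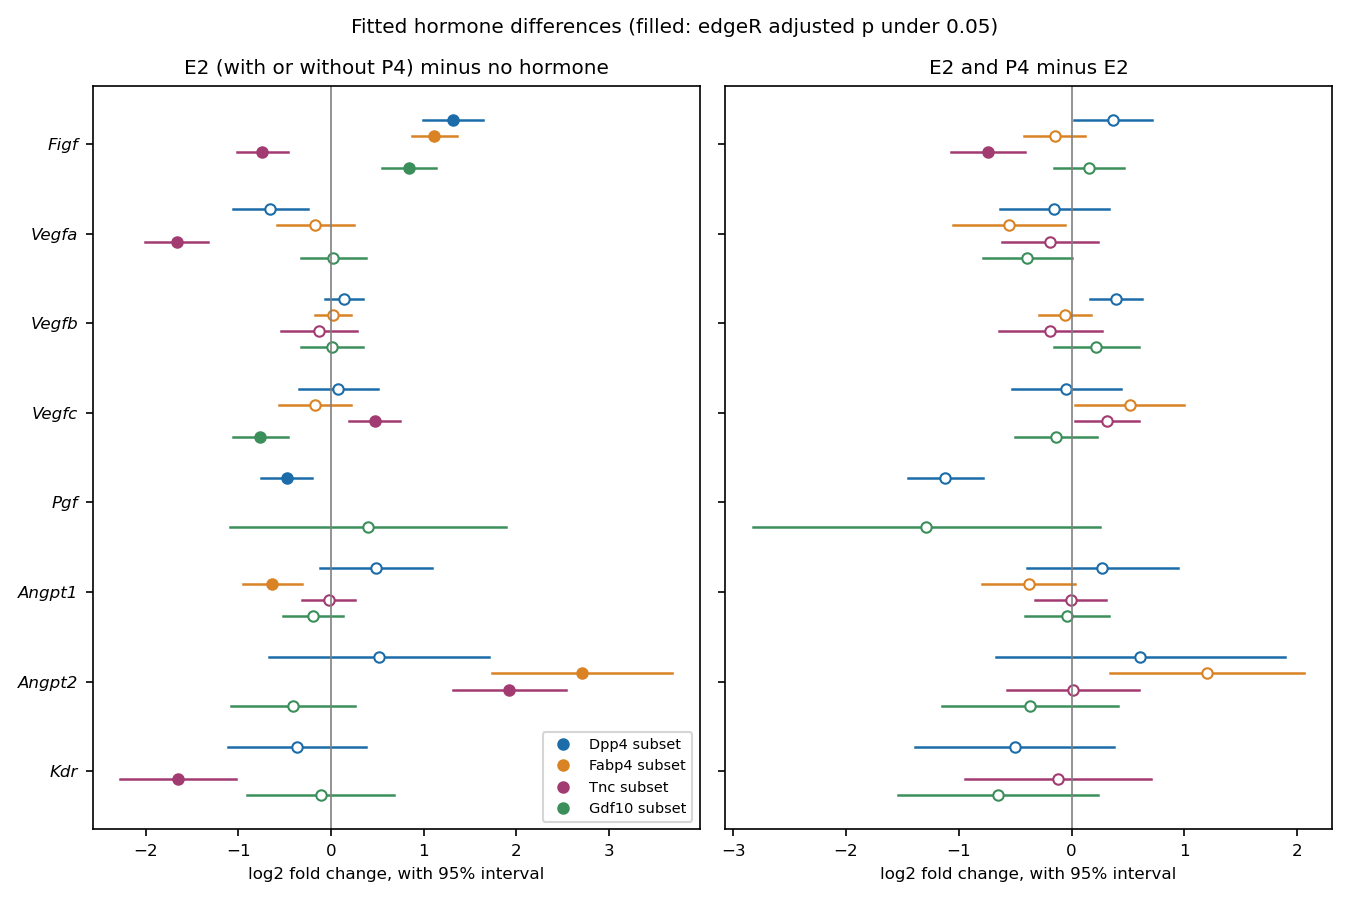
Log2 difference with its 95% interval for each tested gene and fibroblast subset, E2 minus no hormone on the left and E2 + P4 minus E2 on the right; filled points passed edgeR's test at an adjusted p below 0.05, and genes not tested in a subset are absent. On the left Angpt2 lies farthest to the right (2.71 in the Fabp4 subset) and Vegfa and Kdr in the Tnc subset farthest to the left (-1.66 and -1.65), and on the right only Figf in the Tnc subset is filled.

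Whether E2 acted alike in the subsets was tested as a difference of differences, the log2 E2 effect in the Dpp4 subset minus that in another subset. Figf differed by 2.07 between the Dpp4 and Tnc subsets (SE 0.20, edgeR adjusted p = 3.99e-07), and the difference passed in 14 of 14 alternatives with values from 1.13 to 2.43. Vegfa differed by 1.00 between the same subsets (SE 0.21, edgeR adjusted p = 0.00121) and Kdr by 1.29 (SE 0.34, adjusted p = 0.00741). With the study's named genes as the gate, Vegfa gave 0.36 (adjusted p = 0.221) and Kdr -0.19 (adjusted p = 0.755), and the Kdr call was also lost without the low-PBDE or the high-PBDE library that had no hormone. Angpt1 differed by 1.12 between the Dpp4 and Fabp4 subsets (SE 0.26, edgeR adjusted p = 0.00853), lost with a wider margin and without the low-PBDE or the high-PBDE library. Vegfc differed by 0.90 between the Dpp4 and Gdf10 subsets (SE 0.19, edgeR adjusted p = 0.0331) and held in 5 of 14 alternatives, lost among others without any 1 of the VCD_E2, VCD_E2_P4, low-PBDE or high-PBDE E2 + P4 libraries or of the low-PBDE libraries with E2 or E2 + P4. Thus 1 of 8 members differed from the Fabp4 subset, 3 of 8 from the Tnc subset and 1 of 8 from the Gdf10 subset, where 11.0%, 30.2% and 0.895% of all 13079 genes did. For Figf the Dpp4 and Fabp4 subsets were not shown to differ (0.22, 95% interval -0.18 to 0.63, edgeR adjusted p = 0.538). Angpt2 was not called in these differences in the main fit. Dpp4 minus Fabp4 passed for it with the study's named genes (log2 -3.37, edgeR adjusted p = 0.00271) and without the VCD_E2 library (-2.81, 0.00977). Dpp4 minus Tnc passed without the VCD_E2 library (-1.96, 0.0168).

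P4 added to E2 left the set largely without calls. Only Figf in the Tnc subset passed, at a mean of 94.2 CPM with E2 and 57.1 with E2 + P4 over 3 libraries each (log2 -0.74, SE 0.15, edgeR adjusted p = 0.0287), and the call was lost without any 1 of the 6 hormone-treated libraries (adjusted p from 0.0578 to 0.164). Pgf in the Dpp4 subset had the means 18.6 and 7.94 CPM, with all E2 + P4 libraries below all E2 libraries, and just missed the threshold (log2 -1.12, SE 0.14, edgeR adjusted p = 0.0545), which it passed in DESeq2 (6.55e-06), without the low-count filter (0.00544), with a wider margin (0.0258) and without the VCD_E2 library (0.0387). Angpt2 in the Fabp4 subset did not pass either (log2 1.201, edgeR adjusted p = 0.159), although it did without the low-count filter (0.0192). Vegfa in the Fabp4 subset, not called in the main fit, passed without the high-PBDE E2 + P4 library (log2 -0.92, edgeR adjusted p = 0.0248). Of all genes, 0.0464% were called for P4 in the Dpp4 subset, 1.24% in the Fabp4 subset, 2.82% in the Tnc subset and 0.113% in the Gdf10 subset.

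PBDE gave 1 call in the set, for Figf with high PBDE in the Fabp4 subset (log2 0.76, SE 0.12, edgeR adjusted p = 0.0451), where the library with high PBDE was the highest of the 3 in each hormone state. It passed in 8 of 18 alternatives and was lost without any 1 of the 9 libraries except the high-PBDE E2 + P4 library (log2 from 0.61 to 0.94 over the alternatives). The values for Figf in the other subsets were 0.14 in the Dpp4, 0.64 in the Tnc and 0.64 in the Gdf10 subset, none called. Those of the Tnc and Gdf10 subsets passed in DESeq2 (adjusted p = 0.0378 and 0.0213) and in edgeR without the low-count filter (0.00751 and 0.00607). Pgf in the Dpp4 subset passed in the same 2 alternatives (0.0103 and 0.0329). Vegfb in the Fabp4 subset passed in edgeR without the filter (0.0408). Low PBDE gave 0 calls in the set. Of all genes, low PBDE called 0.0% in the Dpp4, 0.00817% in the Fabp4, 0.0% in the Tnc and 0.00866% in the Gdf10 subset, and high PBDE 0.147%, 0.302%, 0.0934% and 0.242%. In the Dpp4 and Tnc subsets, where edgeR called 0 genes for low PBDE, 618 and 322 genes had an unadjusted p below 0.05.

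The 3 libraries outside the layout have no replicate, and each level of theirs is given with its exact 95% Poisson interval, which counts sampling of UMIs and nothing else. Figf in the Dpp4 subset was at 126 CPM (119 to 133) with E2 and ICI, beside 125 (119 to 131) in VCD_Vehicle, 229 (222 to 236) in VCD_E2, 169 (162 to 176) in the intact library and 144 (139 to 150) in VCD_Vehicle_NormEnv. The library with ICI thus lay at the level without hormone, and the intact library between the vehicle and E2 libraries. Vegfa in the Tnc subset was at 75.7 CPM (66.5 to 85.9) with E2 and ICI, 83.1 (75.9 to 90.8) in VCD_Vehicle, 27.2 (22.1 to 33.1) in VCD_E2, 68.7 (62.8 to 75.1) in the intact library and 68.4 (58.3 to 79.8) in VCD_Vehicle_NormEnv. Angpt2 in the Tnc subset was at 31.3 CPM (25.5 to 38.1) with E2 and ICI, 31.9 (27.5 to 36.8) in VCD_Vehicle, 61.6 (53.8 to 70.2) in VCD_E2, 51.2 (46.1 to 56.7) in the intact library and 37.2 (29.8 to 45.8) in VCD_Vehicle_NormEnv. For these 3 the ICI library overlapped the VCD_Vehicle library in its interval and not the VCD_E2 library. For Figf in the Fabp4 and Gdf10 subsets the interval of the ICI library did not overlap that of VCD_Vehicle. With E2 and ICI, Figf was at 40.0 CPM (35.3 to 45.1) and 86.2 (76.1 to 97.4), above VCD_Vehicle at 25.6 (22.9 to 28.6) and 50.8 (44.1 to 58.2). In the Fabp4 subset it was below VCD_E2 at 66.3 (61.4 to 71.5). In the Gdf10 subset VCD_E2 was at 98.0 CPM, nearer to the ICI library than VCD_Vehicle was. VCD_Vehicle was the lowest library without hormone in both subsets. The ICI values lay within the layout ranges without hormone, 25.6 to 59.1 and 50.8 to 89.4 CPM. VCD_Vehicle_NormEnv was at 35.6 and 80.7 CPM. Kdr in the Dpp4 subset was at 5.49 CPM (4.15 to 7.13) with E2 and ICI, below both VCD_Vehicle (28.9, 26.0 to 31.9) and VCD_E2 (11.3, 9.75 to 12.9). These differences were not tested.

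Endothelial cells carried the receptors. Pooled over the 12 libraries, the 125 cells stood at 811 CPM of Flt1 against 0.294 in fibroblasts and at 667 CPM of Flt4 against 0.125, where the fibroblast values were at background. The fit against fibroblasts used the 4 libraries with at least 10 endothelial cells. In it Kdr was 56.9-fold higher than in fibroblasts (log2 5.83, SE 0.22, edgeR adjusted p = 2.31e-20), Angpt2 4.55-fold higher (log2 2.19, SE 0.38, adjusted p = 1.79e-05) and Pgf 2.61-fold higher (log2 1.39, SE 0.40, adjusted p = 0.00577). The fibroblast side holds all subsets together. Pooled over the 12 libraries, Angpt2 was at 57.44 CPM in endothelial cells and at 66.85 in the Tnc subset. Figf (log2 -5.62), Angpt1 (-3.38) and Vegfa (-2.45) were lower, and Vegfb (-0.44, adjusted p = 0.206) and Vegfc (-0.64, adjusted p = 0.281) did not pass in edgeR. These 8 calls of 10 members compare with 35.8% of all genes. The count was 8 again without each of the 4 libraries in turn.

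The blood and lymphatic endothelial cells, pooled over libraries because they were few, divided the receptors between them. The 71 blood endothelial cells held 1666 UMIs of Flt1 (1693 CPM), 907 of Kdr (922 CPM) and 76 of Flt4 (77.3 CPM). The 51 lymphatic cells held 0 UMIs of Flt1, 643 of Kdr (607 CPM) and 1293 of Flt4 (1220 CPM). For Flt1 the 0 UMIs of the lymphatic gate allow a level of up to 3.48 CPM (exact Poisson, 95%, for the pooled counts only). A Flt1 UMI was seen in 88.7% of the 71 blood endothelial cells, Flt4 in 100.0% of lymphatic and 46.5% of blood endothelial cells, and Kdr in 98.0% and 87.3%. Thinning left out 20 blood and 3 lymphatic cells with fewer UMIs, and the shares of the rest were 96.1% for Flt1, 95.8% and 33.3% for Flt4, and 89.6% and 98.0% for Kdr, an order between the kinds that turned with depth for Kdr. Among the ligands, Pgf had 41 UMIs in lymphatic cells (38.7 CPM) and 0 in blood endothelial cells, Angpt2 82 (77.4 CPM) and 36 (36.6 CPM), Vegfb 50 (47.2 CPM) and 12 (12.2 CPM), and Vegfc 1 and 17 (17.3 CPM). These sums carry no test and do not weigh the libraries alike: the lymphatic cells came from 10 libraries, 16 of 51 from the low-PBDE E2 library, and the blood endothelial cells from 12, 21 of 71 from the low-PBDE E2 + P4 library. The pericyte marker list summed to 1203 CPM in the blood endothelial gate and to 74.5 CPM in the lymphatic one, where Rgs5, Notch3, Cspg4 and Higd1b were at 0, and its part in the Angpt2 values was not tested.

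**Figure D4:**
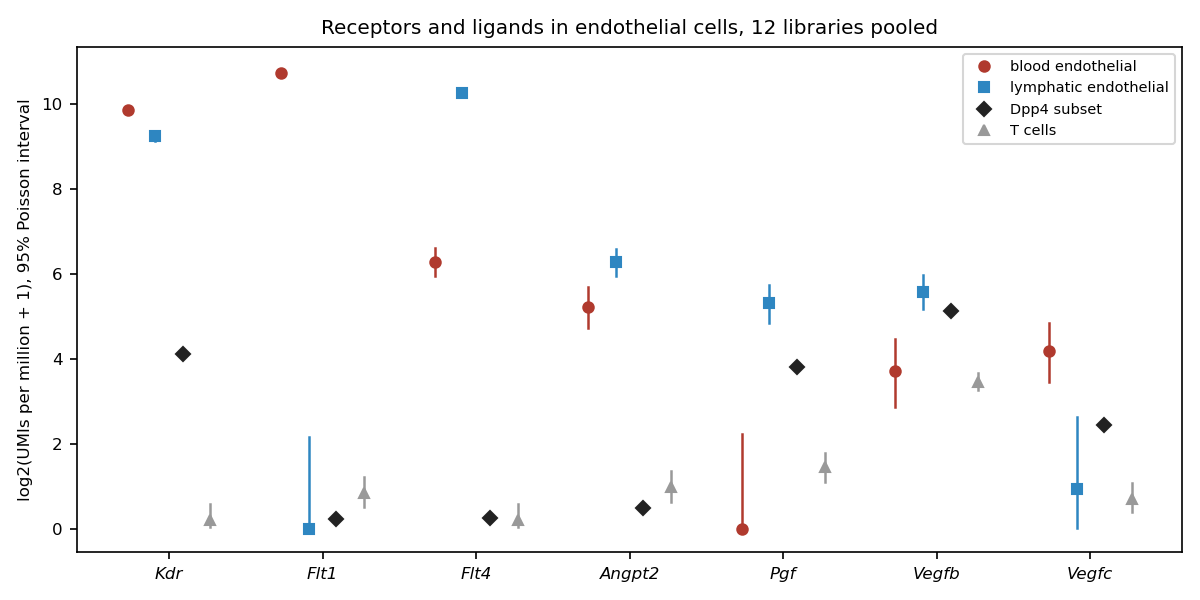
Pooled level of Kdr, Flt1, Flt4, Angpt2, Pgf, Vegfb and Vegfc, as log2(CPM + 1) with exact 95% Poisson intervals, in blood and lymphatic endothelial cells, the Dpp4 fibroblast subset and T cells. Flt1 is high in blood endothelial cells (1693 CPM) and not detected in the lymphatic cells (0 UMIs), Flt4 is highest in the lymphatic cells (1220 CPM), and Kdr is high in both.

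No endothelial gene passed the hormone tests. Flt1 in endothelial cells was at 2580, 1684 and 1275 CPM without hormone, 1048, 340 and 752 with E2, and 1118, 979 and 1024 with E2 + P4, with the treated libraries all below the others (1 of 3 tested members, against 4.81% of genes). The edgeR difference was -1.14 on the log2 scale (SE 0.32, adjusted p = 0.211), with Kdr at -0.92 (adjusted p = 0.387) and Flt4 at 1.04 (adjusted p = 0.758). A library had as few as 1 endothelial cell and from 0 to 16 lymphatic ones, and Flt1 and Flt4 mark opposite kinds, so that a shift in kind and a shift in level cannot be told apart at this depth. E2, P4, low PBDE and high PBDE each called 0.0% of 2643 genes here in edgeR, with 267, 66, 29 and 99 genes at an unadjusted p below 0.05, and DESeq2 called 10 for E2 and 0 for P4.

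Immune cells held little of the set apart from Vegfa, Vegfb and, in some gates, Vegfc, Pgf or Flt1. Pgf was at 4.13 CPM in dendritic cells, on 20 UMIs in 13 of 261 cells, beside 3.31 CPM in the Gdf10 subset. Its thinned shares were 2.69% in dendritic cells, 1.32% in the Gdf10 subset and 0.400% in T cells. Vegfc was at 5.45 CPM in NK and innate lymphoid cells and 5.935 in the immune cells outside the named kinds. Beside these stood 4.451 CPM in the Dpp4 and 5.946 in the Fabp4 subset. The thinned shares with a Vegfc UMI were 3.15% and 4.68%, against 2.02% and 2.75% in those subsets and 0.400% in T cells. Pooled over libraries, Vegfa was at 27.8 CPM in macrophages, 40.2 in NK and innate lymphoid cells, 48.9 in B cells, 42.3 in the remaining immune cells, 9.70 in dendritic cells and 9.18 in T cells. After thinning the shares of cells with a Vegfa UMI were 8.01% in macrophages, 14.7% in NK and innate lymphoid cells, 22.3% in B cells and 3.52% in T cells, against 33.4% in the Gdf10 subset, 21.9% in the Tnc subset and 20.0% in the Fabp4 subset, so that B cells were near the level of most fibroblasts. The B-cell values pool 198 cells, 64 of them from the low-PBDE E2 + P4 library. In macrophages Vegfa was at 10.9, 24.4 and 1.65 CPM without hormone, 31.7, 30.8 and 40.3 with E2, and 19.9, 29.9 and 38.5 with E2 + P4, with 1 treated library among those without hormone (log2 1.04, SE 0.37, edgeR adjusted p = 0.294). Vegfb did not pass either (log2 0.54, adjusted p = 0.594). These were the 2 members tested in macrophages, 0 of them free of overlap (4.92% of genes), and edgeR called 0.407% of 8847 genes for E2, 0.192% for P4, 0.0% for low PBDE (364 at an unadjusted p below 0.05) and 0.271% for high PBDE there. In the macrophage gate the dendritic list went from 161 to 185 CPM without hormone to 79.6 to 146 with it and the B-cell list from 4.94 to 9.50 to 10.02 to 20.5, and their part was not tested. Against fibroblasts, macrophages were called higher in Flt1 (edgeR adjusted p = 4.22e-05), on 32 UMIs in 22 of 1096 cells, with thinned shares of 0.879% in macrophages and 0.320% in T cells, and no fold is given. They had less of 8 other members, beside 77.2% of all genes called. Of 201 Flt1 UMIs in immune cells, 139 were in the remaining immune cells (6.50 CPM), 3.91% of which held one after thinning against 0.320% of T cells.

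The pathway around the set was read as a list of 47 genes: co-receptors, ligand proteases, related ligands, inhibitors, hypoxia genes and endothelial response genes. For E2, 4 rose and 4 fell of 34 tested in the Dpp4 subset, 1 rose and 2 fell of 31 in the Fabp4 subset, 5 rose and 7 fell of 31 in the Tnc subset, and 0 rose and 1 fell of 32 in the Gdf10 subset, where 11.0%, 11.3%, 33.4% and 3.65% of all genes were called, with list medians of -0.03, -0.10, -0.02 and -0.08 on the log2 scale. The shares called in the list, 3 of 31 in the Fabp4 subset and 12 of 31 in the Tnc subset among them, were near those of all genes except in the Dpp4 subset, where 8 of 34 were called. None passed of 21 in macrophages or 19 in endothelial cells. In the Dpp4 subset Adm, a vasodilator peptide induced by hypoxia, rose (log2 1.27, adjusted p = 0.0214), as did Thbs2, a matrix inhibitor of vessel growth (0.93, 0.0252), while Slc2a1, the glucose transporter GLUT1 (-1.04, 0.0331), and Epas1, which encodes HIF-2α (-0.85, 0.0157), fell in edgeR. In the Tnc subset Adm fell (log2 -1.39, edgeR adjusted p = 2.13e-05), and its E2 effect differed by 2.67 from that in the Dpp4 subset (SE 0.28, edgeR adjusted p = 1.2e-06), the same directions as Figf in the main gates. The direction of Figf in the Tnc subset turned with the study's named genes as the gate (log2 0.14, edgeR adjusted p = 0.599). The other large changes there were falls of Pdgfc, a platelet-derived growth factor (log2 -3.18, adjusted p = 3.77e-05), and Ccbe1, a cofactor in the cleavage of the Vegfc precursor (-1.85, 0.000775), and a rise of Pcsk5, a proprotein convertase (1.43, 6.93e-05), in edgeR. The alternative analyses were not read for pathway genes. How far these calls depend on the Tnc gate, 55.5% of whose cells stayed with the study's named genes, was not tested. Pcsk5 also rose in the Fabp4 subset (log2 0.68, edgeR adjusted p = 0.0413), where Ndrg1 (-0.64, 0.0273) and Shb, an adaptor of Kdr signaling (-0.36, 0.0435), fell. In the Gdf10 subset the gene that fell was Nrp2, the co-receptor of the lymphangiogenic ligands (log2 -1.18, edgeR adjusted p = 0.0352).

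P4 added to E2 called 4 of the 31 pathway genes tested in the Tnc subset, where 2.82% of all genes were called, and 0 in the other gates: Nrp2 (log2 -1.20, edgeR adjusted p = 0.00442) and Adm (-0.92, 0.013) fell, and Pcsk5 (0.90, 0.0163) and Nrp1, the co-receptor of Vegfa (0.63, 0.035), rose. The E2 and P4 comparisons share the E2 and E2 + P4 libraries. The dependence of these P4 calls on the Tnc gate was not tested either.

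The genes whose level in the Dpp4 subset was most like that of Figf over the 12 libraries, among 12408 genes compared on log2 CPM, were Lpcat2 (Pearson's r 0.973, Spearman's rho 0.965), Ms4a4d (0.97 and 0.951), Plac8 (0.968 and 0.965), AI427809 (0.963 and 0.923) and Smim24 (0.96 and 0.951). These values describe 12 libraries that share hormone states and carry no test.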

How the data were processed

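Single-cell UMI count matrices of 12 libraries, deposited by the authors after Cell Ranger 3.1.0 with the mm10 genome per the labels, were used as deposited. Cells with at least 500 genes, 1000 UMIs and at most 5% mitochondrial UMIs were kept. Gates used marker lists of 5 (T cells, with 1 marker not found) to 8 genes, a fibroblast level of 50 UMIs per 10000 and a margin of 0.3 between subset scores (0.6 as an alternative). 3038 fibroblasts (9.72%) lay within 0.1 of that margin. Doublets were not removed in the results given (2040 cells were in an alternative), and 1625 immune and 121 endothelial candidates with high fibroblast RNA were left out. Counts were summed per library and gate and tested with edgeR 4.0.16 (quasi-likelihood, TMM, filterByExpr, Benjamini-Hochberg over all genes, threshold 0.05) in R 4.3.3, with hormone and PBDE level as terms, or with the library as a block between gates. The study tested cells, which this replaces. A change (rose, fell, higher, lower) was called at that threshold. DESeq2 1.42.0 was an alternative. The fits were tested on simulated data. Shares were thinned to 5000 UMIs per cell, which left out 667 Dpp4-subset and 835 T cells. All 10 genes were named whatever their values, and pathway genes where they passed, up to 4 per gate and contrast by size. The genes, lists and tests were chosen with earlier results of these data known. Gene positions are from GENCODE M21. Alternatives for PBDE, for differences between subsets and for cell types, and leaving out libraries in the subset contrast, were added after the data were seen.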

Additional observations from a re-analysis of the deposited data

Results flagged for a closer look

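The E2 effect differed between fibroblast subsets, by a test of the difference itself, for 5 results. Figf differed by 2.07 (log2, Dpp4 subset minus Tnc subset), Kdr by 1.29 and Vegfa by 1.00 between the same subsets, Angpt1 by 1.12 (Dpp4 minus Fabp4) and Vegfc by 0.90 (Dpp4 minus Gdf10). The Tnc gate kept 55.5% of its cells when gated on the study's named genes, and of its 3 differences only that of Figf then passed. Of all genes, 30.2% differed between the Dpp4 and Tnc subsets, 11.0% between the Dpp4 and Fabp4 subsets and 0.895% between the Dpp4 and Gdf10 subsets. Vegfc passed in 5 of 14 alternatives, and Angpt1 was lost with a wider margin and without the low-PBDE or the high-PBDE library that had no hormone. No explanation was tested.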

How the results depend on the processing

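Of 63 member results called by edgeR, 42 passed under every alternative run, and 727 of their 802 alternative values passed, 795 with the same direction. Of 149 not called, 129 never passed and 20 passed somewhere. Directions turned with the study's named genes as gate for Figf (0.14) and Vegfc (-0.085) under E2 in the Tnc subset, for Pgf (0.021) and Kdr (1.69) in the Tnc subset and Figf (-0.41), Vegfb (-0.015) and Kdr (-1.14) in the Gdf10 subset against the others, and for Kdr in the difference of Dpp4 and Tnc subsets (-0.19), and with E2 alone for Pgf in the Dpp4 subset (0.076).

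Numbers of members called moved as follows. For E2 in the Dpp4 subset, 2 became 1 with VCD_Vehicle_NormEnv as vehicle and with the study genes, 0 with E2 alone, 3 in DESeq2, without the filter and with a mitochondrial limit of 10%, and 1 to 2 when 1 library was left out. In the Fabp4 subset 3 became 1 with E2 alone, 2 in DESeq2, and 2 to 3 with 1 library left out. In the Tnc subset 5 became 1 with the study genes, 3 with E2 alone, 6 with VCD_Vehicle_NormEnv, and 4 to 5 with 1 library left out. In the Gdf10 subset 2 became 1 with VCD_Vehicle_NormEnv and with a wider margin, 0 with E2 alone, and 1 to 2 with 1 library left out. In macrophages 0 became 1 without the filter. For P4, 0 in the Dpp4 subset became 1 in DESeq2, without the filter and with a wider margin, and 0 to 1 with 1 library left out; 0 in the Fabp4 subset became 1 without the filter and 0 to 1 with 1 library left out; 1 in the Tnc subset became 0 with the study genes and 0 to 1 with 1 library left out. For high PBDE, 0 became 1 in DESeq2 and without the filter in the Dpp4, Tnc and Gdf10 subsets, 0 to 1 in the Tnc subset with 1 library left out, and 1 in the Fabp4 subset became 2 without the filter, 0 with VCD_Vehicle_NormEnv and with E2 alone, and 0 to 1 with 1 library left out. For differences of the E2 effect, Dpp4 minus Fabp4 went from 1 to 0 with a wider margin, 2 with the study genes and 0 to 2 with 1 library left out, Dpp4 minus Tnc from 3 to 1 with the study genes and 2 to 5 with 1 library left out, and Dpp4 minus Gdf10 from 1 to 0 with a wider margin and with a mitochondrial limit of 10%, and 0 to 2 with 1 library left out. In the contrasts between subsets, the Fabp4 count of 7 ranged from 6 to 8, and with the study genes the Tnc count went from 6 to 5 and the Gdf10 count from 7 to 6. The cause of these shifts was not tested. Without doublets the endothelial fit dropped the low-PBDE library, left with 0 cells. Each group is 1 library, and endothelial results rest on 125 cells, so that small differences were not detectable at this depth.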
